A study of Mus musculus with 38 samples.

Results

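Heat shock proteins and their co-chaperones fold new proteins, refold damaged ones and hand others over for breakdown. HSP70 proteins bind unfolded segments, J proteins bring clients to HSP70 and start its ATP cycle, and BAG proteins and HSP110 proteins let it release them. The ring-shaped chaperonins enclose a client: TRiC in the cytosol, which folds actin and tubulin among others, and HSP60 with its lid HSP10 in mitochondria. Under heat or unfolded protein in the cytosol, the factor HSF1 switches on many of these genes by binding repeats of short GAA units in their promoters, whereas unfolded protein in the ER acts through other factors. The members were the genes whose mouse symbol names a heat shock protein, a J protein, a TRiC subunit, a BAG protein, a heat shock factor, Stip1 or Ahsa1, without Hspa5. Of 18820 genes with a probe of their own, 85 were members: 54 cytosolic, 10 mitochondrial, 12 of the ER or the secretory pathway and 9 placed elsewhere or in several places. Members with probes that also name another gene, among them Hspa1a and Hspa1b, were not analysed here. Hsf1 and Hsp90ab1 are not among the 85 genes either.

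C57BL/6J mice, an inbred strain, were given slow-release pellets with haloperidol, an antipsychotic drug that acts mainly by blocking the D2 receptor of dopamine, or with placebo, for 30 days. Whole brain was measured on 10 haloperidol and 10 placebo arrays and liver on 9 and 9, each from 1 mouse per the design text. The labels call the haloperidol arrays drug and give each array a tag, a digit and a letter, such as 4N, and 18 tags occur in both tissues under the same treatment. The sources used here give neither the meaning of the tag nor the age of the mice. All values are on the authors' normalized log2 scale. A change is haloperidol minus placebo, and a gene passed at a limma adjusted p (Benjamini-Hochberg over all genes tested) under 0.05. Of the members, 76 were bright enough to be tested in brain, 75 in liver and 73 in the test of the liver change minus the brain change. In whole tissue, fewer cells of a type and less RNA per cell cannot be told apart.

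Brain arrays of the 2 groups differed over all probes, not in these genes alone. The array median was 6.33 ± 0.044 in placebo brains and 6.19 ± 0.072 in haloperidol brains (SD, n = 10 each), and 1 principal component held 53.2% of the variance. In liver the array median lay the other way, at 4.80 ± 0.082 with placebo and 4.89 ± 0.090 with haloperidol (SD, n = 9 each). Hepatocyte markers had a mean of up to 9.57 in a haloperidol brain array (4T) and at most 5.99 with placebo. The blood markers lay between 6.35 and 7.37 in haloperidol brains and between 5.57 and 6.31 in placebo brains, and 1 of 1 tested passed, as did 1 of 5 choroid plexus and 2 of 5 microglia markers. None of the tested pituitary, neuron, oligodendrocyte, astrocyte and muscle markers passed in brain, and in liver 0 of all the markers tested passed. The part of these differences in the results was not tested.

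The sequences shown are promoter windows of members that carry a heat shock element of 3 units, because Hspe1 and Hspd1 are neighbours around 1 such element and only Hspe1 passed in brain. The element was searched as GAANNTTCNNGAA and as its reverse complement TTCNNGAANNTTC, over windows of 300 bases around annotated start sites (RefSeq, GRCm38.p6). It occurred in 0.603% of 32851 windows. Of 71 members with a window, 4 had it in at least 1 window: Hspe1, Hspd1, Hsph1 and Dnajb6. A gene can have several windows, so this count of genes cannot be set against the share of windows. Hspe1, the gene of HSP10 (chr1:55088148-55091317), and Hspd1, the gene of HSP60 (chr1:55077833-55088243), lie head to head, and 285 bases of the Hspe1 window are also in a window of Hspd1. Both matches lie upstream of the Hspe1 start site. In Hsph1, which codes for an HSP110, the match lies just inside the transcript. Capitals mark the element, and each sequence is given on its gene's own strand.
Hspe1, plus strand, chr1:55087898-55088197: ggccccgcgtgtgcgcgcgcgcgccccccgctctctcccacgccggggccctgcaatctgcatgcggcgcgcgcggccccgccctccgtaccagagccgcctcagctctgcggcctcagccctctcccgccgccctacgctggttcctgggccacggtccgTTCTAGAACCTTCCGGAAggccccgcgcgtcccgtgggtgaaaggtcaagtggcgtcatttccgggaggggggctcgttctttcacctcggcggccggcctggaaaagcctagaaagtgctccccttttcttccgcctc
Hsph1, minus strand, chr5:149636266-149636565: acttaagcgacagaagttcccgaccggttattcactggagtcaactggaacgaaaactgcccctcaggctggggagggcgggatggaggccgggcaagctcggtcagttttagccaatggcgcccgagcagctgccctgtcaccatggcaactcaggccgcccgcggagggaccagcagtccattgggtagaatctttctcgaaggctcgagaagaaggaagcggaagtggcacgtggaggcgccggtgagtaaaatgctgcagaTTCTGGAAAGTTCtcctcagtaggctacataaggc
A match describes these letters only and is not evidence of binding.

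In brain, the mitochondrial genes Hspe1 and Dnajc15 had the largest rises among the members, 6 of the 8 TRiC subunits rose, and 10 of the 12 heat-inducible members did not pass. In all, 23 of 76 members passed, 18 higher and 5 lower with haloperidol. Over all genes tested 30.4% passed, 15.2% higher and 15.2% lower, so the members passed about as often as other genes (30.3%). The median change was 0.008 over the members and -0.020 over all genes. By place, 12 cytosolic members were higher and 1 lower of 49, 3 mitochondrial higher and 1 lower of 10, 2 ER members higher and 2 lower of 11, and 1 higher and 1 lower of the 6 elsewhere. With the median of each array subtracted, 30 members passed, all higher, and the median of all genes moved from -0.020 to 0.116. With the array median as a covariate, which differs between the groups, 0 members and 0 of all genes passed.

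Of the mitochondrial pair HSP60 and HSP10, the HSP10 gene rose and the HSP60 gene did not pass. Hspe1 ranged from 9.81 over a median of 10.03 to 10.61 on placebo arrays and from 10.01 over 10.92 to 11.58 on haloperidol arrays. Of the haloperidol arrays, 6 lay above every placebo array, while 4L, 1R, 4T and 2N, at 10.01, 10.15, 10.24 and 10.59, lay inside the placebo range. The mean rose from 10.10 ± 0.29 to 10.84 ± 0.57 (SD, n = 10 each), a log2 change of 0.74 ± 0.18 (SE; limma adjusted p = 0.0069). Hspd1 ranged from 10.14 over 10.33 to 10.46 on placebo arrays and from 10.00 over 10.24 to 10.50 on haloperidol arrays. The groups overlapped almost completely, and its change of -0.08 ± 0.06 (SE) did not pass (limma adjusted p = 0.33). The difference between these 2 genes was not tested. Hspe1 has 2 probes, which gave 0.76 and 0.74 in brain, and Hspd1 has 2, which gave -0.07 and -0.08. RefSeq lists 7 pseudogenes of Hspe1 and 5 of Hspd1, and whether their transcripts reach these probes was not tested. The Hspe1 change was 0.41 with the array median as a covariate and 0.02 with the first principal component as a covariate, and neither passed.

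The other mitochondrial members divided as well. Dnajc15, a J protein of the inner membrane that acts at the import motor, lay between 8.95 and 9.68 (median 9.33) with placebo and between 9.24 and 10.63 (median 10.14) with haloperidol. For Dnajc15, 7 of 10 haloperidol arrays lay above every placebo array, and 4L, 4T and 1R lay inside the placebo range. Its log2 change was 0.69 ± 0.17 (SE; limma adjusted p = 0.0064). Dnajc19, its relative at the same motor, rose by 0.35 ± 0.09 on the brighter probe (limma adjusted p = 0.0084), but its second probe gave 0.09 and RefSeq lists 1 pseudogene. Hspa9, the HSP70 of the matrix, was at 10.56 ± 0.09 with placebo and 10.53 ± 0.10 with haloperidol (SD, n = 10 each), a difference that did not pass. Dnajc11, a J protein of the outer membrane, fell by 0.23 ± 0.08 (limma adjusted p = 0.041), with 5 haloperidol arrays below every placebo array. Dnajc4, Dnajc30, Dnajc28 and Dnaja3 did not pass.

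**Figure D1:**
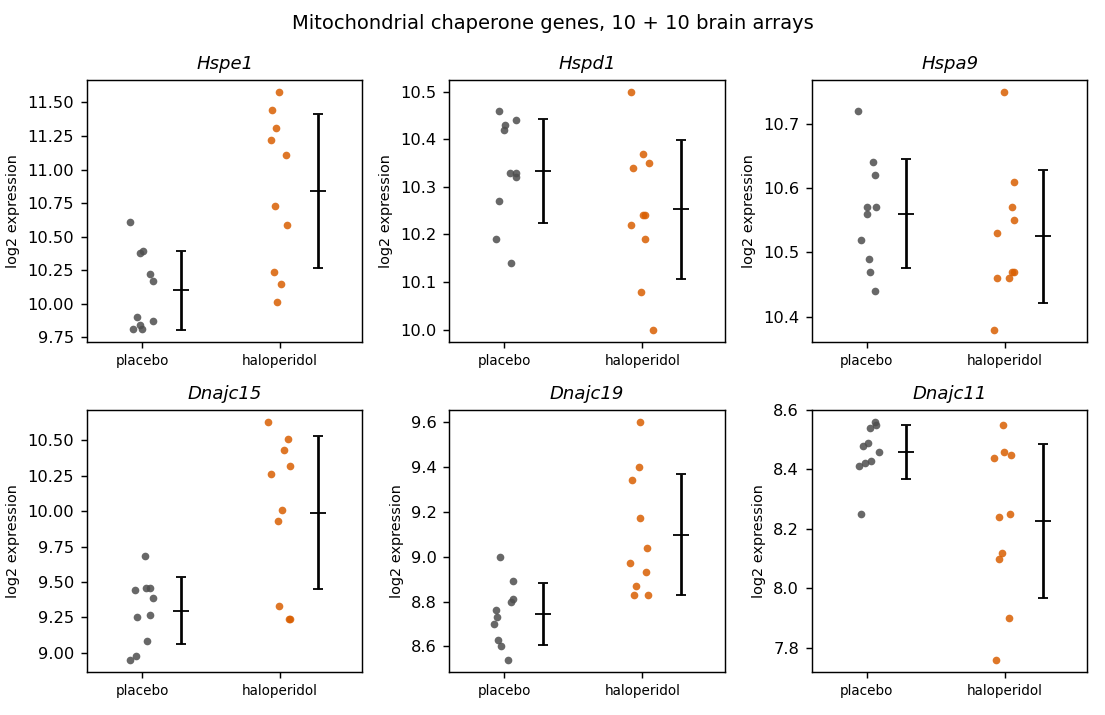
Log2 expression of 6 mitochondrial chaperone genes on 10 placebo (grey) and 10 haloperidol (orange) brain arrays; points are arrays, bars are mean ± SD, and each panel has its own vertical range. Haloperidol arrays of Hspe1 and Dnajc15 spread from inside the placebo range to well above it, while Hspd1 and Hspa9 overlapped.

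TRiC is built of 8 kinds of subunit, each from its own gene, and all 8 were measured. Of these, 6 rose (Cct6a, Cct3, Cct4, Cct5, Tcp1 and Cct2), against 15.2% higher over all genes, and the median change of the 8 was 0.29. Cct6a lay between 10.30 and 10.83 (median 10.44) on placebo arrays and between 10.47 and 11.49 (median 11.00) on haloperidol arrays, with 6 of 10 haloperidol arrays above every placebo array. It changed by 0.44 ± 0.11 (SE; limma adjusted p = 0.0083), the most of the 8. Cct2 changed least of those that passed, by 0.17 ± 0.05 (limma adjusted p = 0.020). Cct7 (0.18, limma adjusted p = 0.055) and Cct8 (0.09, adjusted p = 0.24) did not pass. The 6 changes lay between 0.31 (Cct2) and 0.58 (Cct6a) with array medians subtracted and between 0.09 (Cct2, no longer passing) and 0.36 (Cct3) after a second quantile normalization. With the first principal component as a covariate they lay between -0.07 (Cct4) and 0.06 (Cct2), and none passed. Cct6b, a paralogue of Cct6a, was below the limit for testing.

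The subunits moved as a block from array to array. Averaged over the 8 genes and set against the placebo mean, the haloperidol arrays ran from -0.010 (4L) and 0.029 (1R) to 0.572 (3B) and 0.651 (4N), and the placebo arrays from -0.130 (1L) to 0.206 (4R). On 7 of 10 haloperidol arrays every subunit was above its placebo mean. The haloperidol arrays that were lowest for TRiC, 4L and 1R, were also among the lowest for Hspe1 and Dnajc15, and 3B and 4N were the 2 highest for all of these. The same arrays, 1R with 4L and 4N with 3B, were the lowest and highest haloperidol arrays on the first principal component of all genes tested (scores -0.169, -0.131, 0.516 and 0.420). Beyond TRiC, 6 cytosolic members rose and 1 fell of 41. The share of these that passed was 17.1%, against 30.4% of all genes, of which 15.2% were higher and 15.2% lower.

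**Figure D2:**
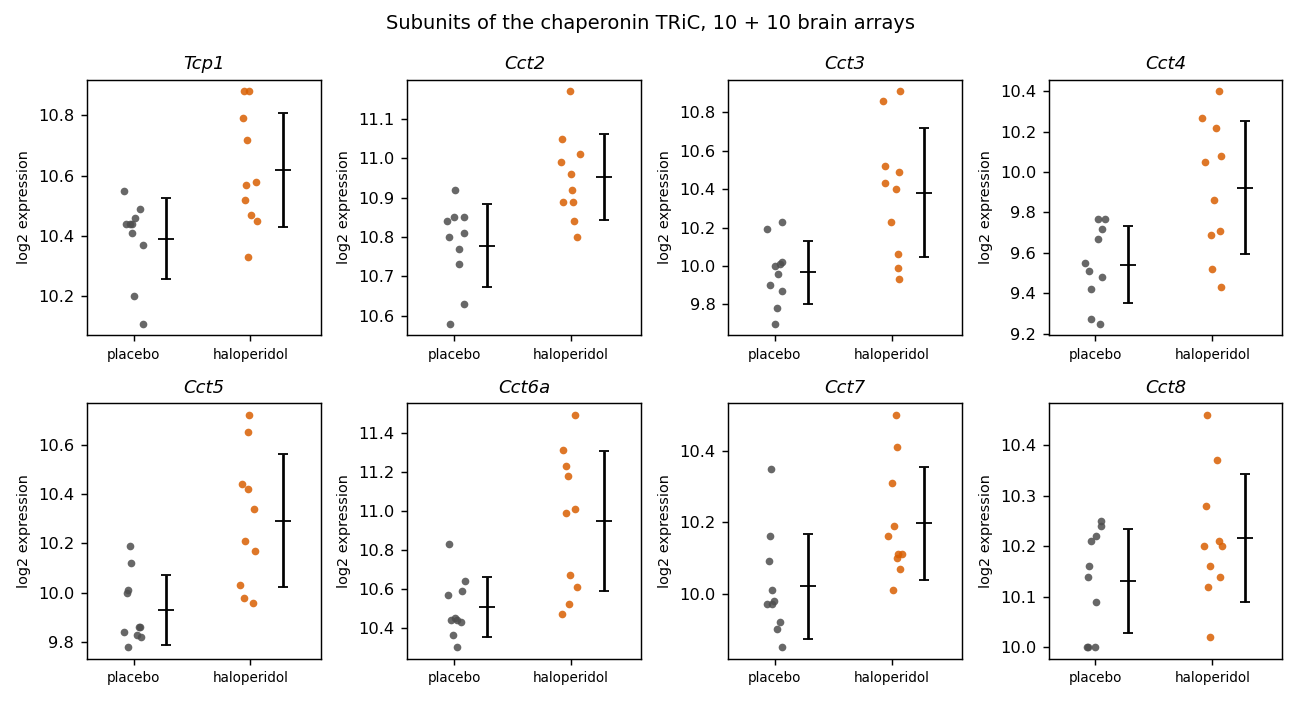
Log2 expression of the 8 TRiC subunit genes on 10 placebo (grey) and 10 haloperidol (orange) brain arrays; points are arrays, bars are mean ± SD, and each panel has its own vertical range. Haloperidol means lay above placebo means in all 8 panels, and the groups overlapped in each.

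Dnajc12, a J protein needed for the stability of the aromatic amino acid hydroxylases that make dopamine and serotonin, had the third largest rise. It lay between 7.48 and 7.84 (median 7.71) with placebo and between 7.54 and 8.98 (median 8.34) with haloperidol. Placebo arrays were tightly grouped and 7 of 10 haloperidol arrays lay above them all. The log2 change was 0.58 ± 0.16 (SE; limma adjusted p = 0.010). Hspb8, a small heat shock protein that works with Bag3, rose by 0.39 ± 0.14 (limma adjusted p = 0.044), and Bag2, a nucleotide exchange factor of HSP70, by 0.33 ± 0.10 (adjusted p = 0.016). Dnajc9, a histone chaperone, rose by 0.31 and Dnajc8, a J protein of the spliceosome, by 0.25. Stip1, which links HSP70 to HSP90, rose by 0.20 ± 0.08 (limma adjusted p = 0.048), with 6 haloperidol arrays above every placebo array. Hspb11, a transport protein of cilia in spite of its name, rose by 0.27. The cytosolic member that fell was Dnajc21, a ribosome assembly factor (-0.25 ± 0.09, adjusted p = 0.034), and Dnajc13, a J protein of endosomes, fell by 0.17 (adjusted p = 0.023), with all 15 of its probes between -0.07 and -0.28.

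Hspa8, Hsp90aa1 and Hsph1, core chaperones of the cytosol, did not pass in brain. Hspa8, the constitutive HSP70, was at 12.57 to 12.93 with haloperidol and 12.63 to 12.93 with placebo, a log2 change of 0.00. Hsp90aa1 changed by -0.03 and Hsph1 by -0.17 (limma adjusted p = 0.072). The heat-inducible members are the 12 genes with a probe of their own out of 15 on a textbook list of HSF1 targets. The rest of that list was not analysed. Of these 12, 2 were higher (Hspe1 and Stip1) and 0 lower, with a median change of -0.02. The 2 that rose make 16.7% of the 12, where 15.2% of all genes were higher and 15.2% lower, with a median change of -0.02. Hspa1l, an HSP70 expressed mainly in testis, changed by -0.33 (adjusted p = 0.083) on 1 probe and by 0.02 on a dimmer one, and Dnajb5 by -0.23 (adjusted p = 0.096), and neither passed. Bag3, Hspb1 and Dnajb1 changed by -0.01, -0.13 and 0.22, none past the threshold.

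ER members went both ways in brain. Dnajb9, which is switched on by unfolded protein in the ER and brings it to breakdown, lay between 9.27 and 10.00 (median 9.68) with placebo and between 9.70 and 10.51 (median 10.02) with haloperidol. Each of the 10 haloperidol arrays exceeded the placebo mean, and 5 were above every placebo array. Its log2 change was 0.39 ± 0.10 (SE; limma adjusted p = 0.0076). Hspa13, an HSP70-like protein of microsomes, rose by 0.34 ± 0.12 (adjusted p = 0.041). Hsp90b1, the HSP90 of the ER lumen, fell by 0.19 ± 0.07 (adjusted p = 0.042), with 5 haloperidol arrays below every placebo array, and Dnajc16 fell by 0.23 (adjusted p = 0.043). Dnajb11 and Dnajc3, J proteins that like Hsp90b1 respond to ER stress, changed by -0.15 and -0.06 and did not pass.

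Several of the brain calls were close to the threshold. Stip1, Dnajc11, Dnajc16, Hsp90b1, Hspa13, Hspb8 and Dnajc21 each lost the call in 7 to 15 of 20 fits that left out 1 array. With 3 arrays left out (haloperidol 4N, haloperidol 4T and placebo 1L), 10 members passed, among them Hspe1 (0.71), Dnajc15 (0.69), Dnajc12 (0.55) and Dnajb9 (0.34), and Cct4, Tcp1 and Cct2 no longer did. Within each of the 4 tag digits, the 18 higher members were all above and the 5 lower members all below placebo. These members were called on the same arrays, so this agreement is not independent of the calls.

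Other chaperone genes of the same pathways, from a companion list without the members, had 10 higher and 1 lower of 37 in brain. The share that passed, 29.7%, was close to the 30.4% of all genes, of which 15.2% were higher and 15.2% lower. Prefoldin hands nascent actin and tubulin to TRiC, and of its subunits Pfdn5 (0.98 ± 0.20, limma adjusted p = 0.0043), Vbp1 (0.54), Pfdn1 (0.40) and Pfdn2 (0.18) rose. Grpel1, which makes Hspa9 release its nucleotide, rose by 0.57 ± 0.12 (adjusted p = 0.0044), and Hscb, the J protein of iron-sulfur cluster assembly, by 0.40. Hsbp1, an inhibitor of HSF1, rose by 0.38, Sugt1, a partner of HSP90, by 0.22, the protease Yme1l1 by 0.31 and P4hb, a disulfide isomerase, by 0.39. Afg3l2, a protease of the inner mitochondrial membrane, fell by 0.24. By place, 6 of 15 cytosolic, 3 of 9 mitochondrial and 1 of 13 ER companions were higher.

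In liver no member passed, and most lay below placebo. Over all genes 0 of 12547 (0%) passed in limma, with 848 lower and 468 higher at an unadjusted p under 0.05, and a Wilcoxon test also passed 0 members. The haloperidol mean was below the placebo mean for 63 of 75 members (84%), against 57.4% of all genes, with a median change of -0.120 against -0.024. With array medians subtracted these medians were -0.21 and -0.11, and with the array median as a covariate -0.09 and -0.03. At an unadjusted p under 0.05, 20 members were lower and 0 higher, where 6.76% of all genes were lower. By place, 40 of 49 cytosolic members lay below (median -0.122), 10 of 10 mitochondrial members (-0.130) 11 of 12 ER members (-0.127) and 2 of the 4 tested elsewhere. These members vary together from array to array and are not independent of each other.

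The heat-inducible members lay lowest in liver. All 12 were below placebo, with a median of -0.298, where 57.4% of all genes were below, with a median of -0.024. Of the 12, 8 were lower at an unadjusted limma p under 0.05, where 6.76% of all genes were. Hspb1, the small heat shock protein HSP27, lay between 7.57 and 9.57 (median 8.89) with placebo and between 7.30 and 9.26 (median 8.12) with haloperidol. The groups overlapped, with 8 of 9 haloperidol arrays below the placebo mean, and the change was -0.58 ± 0.23 (SE; limma adjusted p = 0.41). Hspa4l, an HSP110, changed by -0.51 ± 0.19, Hsph1 by -0.46 ± 0.20, Hsp90aa1 by -0.44 ± 0.18 and Bag3 by -0.43 ± 0.20. Their limma adjusted p lay at 0.41, 0.44, 0.42 and 0.46. Dnaja4, a cytosolic J protein outside that list, had the smallest unadjusted limma p of the members, 0.003. It lay between 6.21 and 6.67 (median 6.60) with placebo and between 5.68 and 6.48 (median 6.09) with haloperidol, with 5 of 9 haloperidol arrays below every placebo array.

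Single liver arrays stood apart. Averaged over the 12 genes and set against the placebo mean, haloperidol 2T was at -0.876 and haloperidol 3R at -0.574, and 10 or more of the 12 genes were below the placebo mean on 8 of 9 haloperidol arrays. Haloperidol 4N was the exception at 0.269, the highest of the 18 arrays. Placebo 3L and 2B, at -0.442 and -0.350, had all 12 genes below the placebo mean. Without haloperidol 4N the changes of Hspb1 and Bag3 were -0.71 and -0.57, and without haloperidol 2T those of Hspa4l and Hsp90aa1 were -0.37 and -0.32. None passed in either case. Markers of Kupffer cells had a mean of 8.22 with placebo and 7.92 with haloperidol in liver, and their part was not tested.

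**Figure D3:**
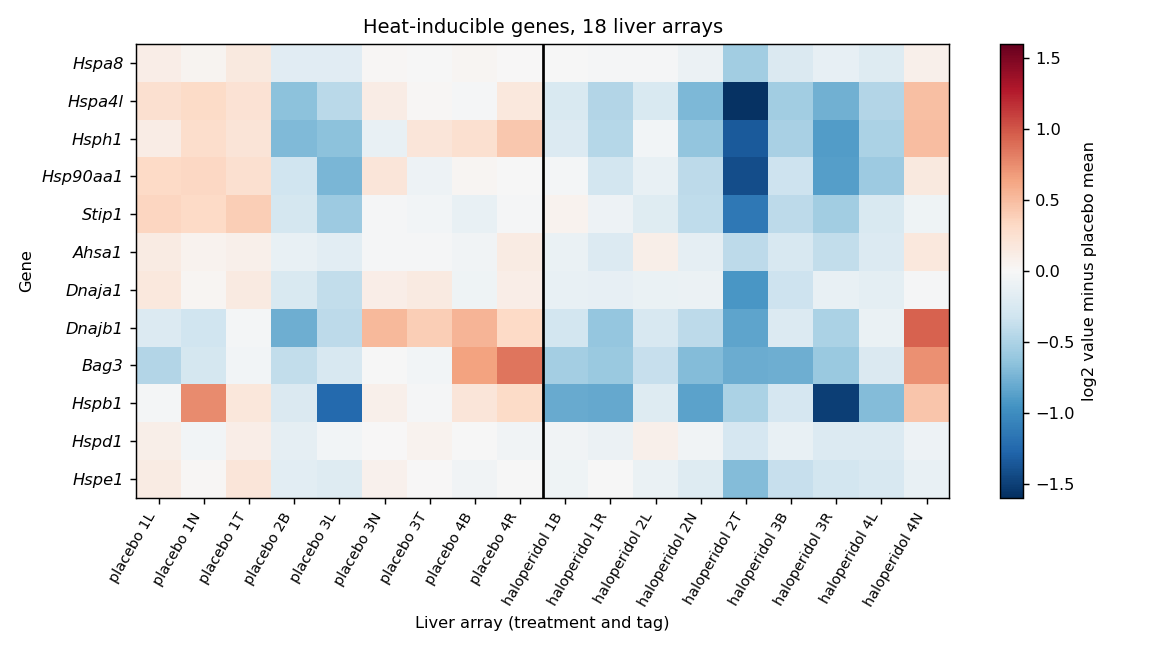
Log2 value minus the placebo mean for the 12 heat-inducible members (rows) on 9 placebo and 9 haloperidol liver arrays (columns, divided by the black line); blue is below and red above the placebo mean. Haloperidol 2T (mean -0.876) and 3R (-0.574) are the darkest blue columns, haloperidol 4N is red for most genes, and placebo 2B and 3L are blue.

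ER and TRiC members in liver lay below placebo too. Dnajb9 changed by -0.51 ± 0.24 and Hspa13 by -0.35 ± 0.11, with unadjusted limma p of 0.045 and 0.005 and adjusted p of 0.46 and 0.37. Dnajb9 lay between 8.46 and 10.11 with placebo and between 8.02 and 9.66 with haloperidol, so the groups overlapped widely. All 8 tested TRiC subunits lay below placebo (median -0.15), where 57.4% of all genes did, and none passed. Of the ER companions 13 of 13 lay below, against the same 57.4% of all genes, and none passed. Among them were Creld2 (-0.70), Sdf2l1 (-0.62), Manf (-0.45), Hyou1 (-0.38) and Hspa5 (-0.33), targets of the ER stress response.

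The difference between the tissues was tested as the liver change minus the brain change. Of 73 members, 18 passed, all 18 lower in liver than in brain and 0 higher, against 23% of all genes that passed, 13.9% lower and 9.16% higher. Hspe1 differed most, by -0.97 ± 0.21 (SE; limma adjusted p = 0.0027), followed by Dnajb9 (-0.90), Dnajc15 (-0.89), Dnajc12 (-0.83), Hspa13 (-0.68) and Hspb8 (-0.64). In TRiC 7 of 8 subunits passed, from Cct3 (-0.59) to Cct2 (-0.31), and Cct8 (-0.14) did not. By place, 13 of 48 cytosolic, 3 of 10 mitochondrial and 2 of 11 ER members passed. Cct7, Dnaja4 and Ahsa1 passed here without passing in either tissue, by -0.40, -0.45 and -0.29, and Ahsa1 (limma adjusted p = 0.048) lost the call in 25 of 38 fits that left out 1 array. Hspa8, Hsp90aa1, Hspa4l, Hsph1, Hspb1, Bag3 and Hspd1 did not pass. With array medians subtracted 47 members passed, all lower, while 4345 of all 10869 genes passed in either direction. The median difference of all genes then moved from -0.012 to -0.235. With the array median as a covariate 0 members and 0 of all genes passed. Of the companions, 11 of 37 were lower, led by Pfdn5 (-1.07), Vbp1 (-0.77), Grpel1 (-0.63) and Manf (-0.56), and Grpel2 (0.40) and Afg3l2 (0.27) were higher.

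**Figure D4:**
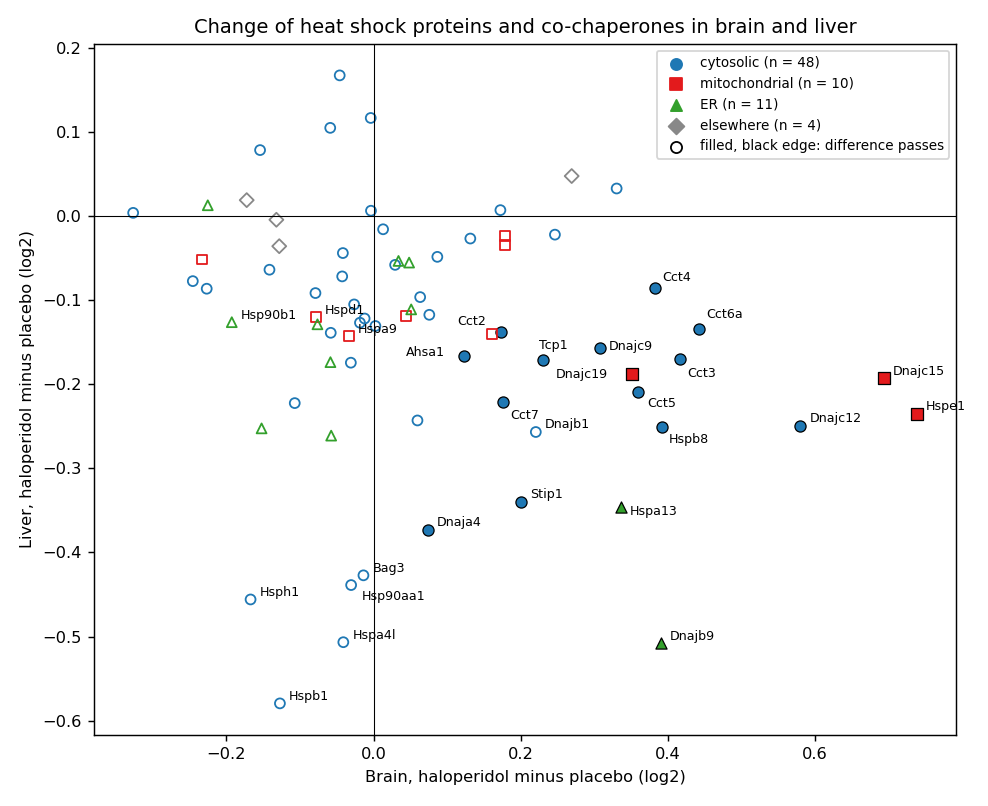
Haloperidol minus placebo (log2) in brain (horizontal) and liver (vertical) for the 73 members tested in both; colour and shape give the compartment, and filled symbols passed in the difference between tissues. The filled symbols all lie to the right of and below the origin, with Hspe1 at 0.74 and -0.23 and Dnajb9 at 0.39 and -0.51.

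The heat-inducible members also varied between mice of the same group. Dnajb1, the J protein HSP40 and a sensitive HSF1 target, lay between 8.05 and 8.84 (median 8.36) on placebo brain arrays and between 8.22 and 9.46 (median 8.53) on haloperidol brain arrays. In liver it lay between 6.29 and 7.62 (median 7.04) with placebo and between 6.23 and 8.02 (median 6.78) with haloperidol. Haloperidol 4N was the highest array in both tissues and placebo 2B was among the lowest 2 in both. After group means were removed, the liver and brain deviations of Dnajb1 over 18 tags had Pearson r = 0.85 (permutation p = 0.00016, adjusted 0.012 over 73 members) and Spearman rho = 0.78 (permutation p = 0.00044). Without the 2 tags farthest from the median, r was 0.69. With the mean of the tag digit removed too, r was 0.72 (permutation p = 0.00075, adjusted 0.055). By size of r the next members were Dnajc5, the cysteine string protein of synaptic vesicles, which ran the opposite way (r = -0.69, rho = -0.67), Hsph1 (r = 0.68, rho = 0.58) and Hspa4l (r = 0.67, rho = 0.63). Their adjusted permutation p for r were 0.055, 0.055 and 0.063, so Dnajb1 was the 1 member that passed. The median r over the 73 members was -0.01. Genes outside the members were not tested in this way.

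**Figure D5:**
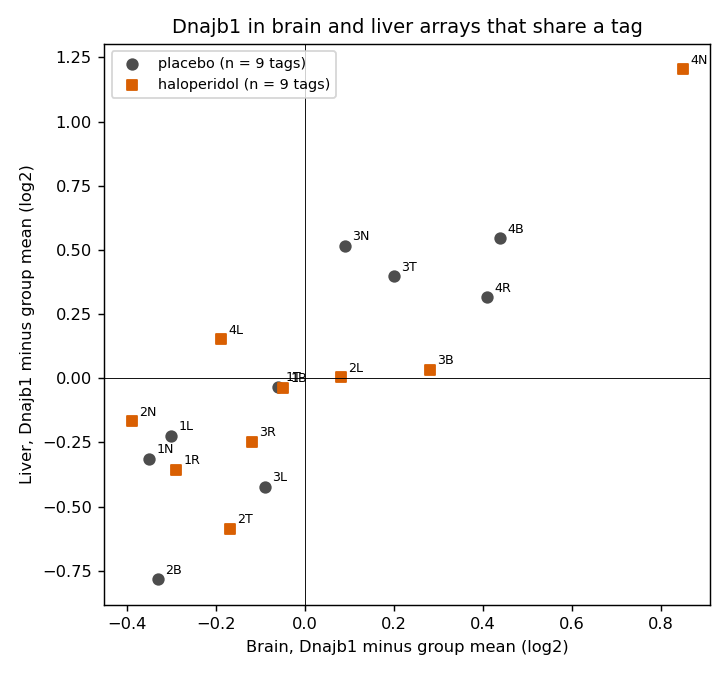
Dnajb1 (log2) minus its group mean in brain (horizontal) and liver (vertical) for the 18 tags with an array of both tissues; grey circles are placebo, orange squares haloperidol, and labels are tags. Most tags lie along the diagonal, with haloperidol 4N highest on both axes.

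Within a tissue, 7 of 22 correlations between Dnajb1 and the 11 other heat-inducible members passed, each over deviations from the group mean. In liver these were Bag3 (r = 0.82, rho = 0.80), Hsph1 (0.76 and 0.61), Hspa4l (0.72 and 0.44) and Ahsa1 (0.59 and 0.52), with adjusted permutation p for r of 0.0017, 0.0036, 0.0090 and 0.036. By rank 2 of these 4 passed, with adjusted permutation p for rho of 0.0023 for Bag3 and 0.038 for Hsph1, while Hspa4l (0.16) and Ahsa1 (0.083) did not. Without the 2 arrays farthest from the median of Dnajb1, r was 0.69, 0.57, 0.47 and 0.33. In brain they were Stip1 (r = 0.82, rho = 0.76), Ahsa1 (0.80 and 0.61) and Hspe1 (0.65 and 0.64), with adjusted permutation p for r of 0.0017, 0.0017 and 0.0080. All 3 passed by rank as well, with adjusted permutation p for rho of 0.0023, 0.036 and 0.022, and without the 2 arrays r was 0.61, 0.61 and 0.60. Bag3 and Hsph1 had r of -0.20 and 0.13 with Dnajb1 in brain. Hspd1, beside Hspe1 on the chromosome, had r of -0.25 in brain and 0.33 in liver, and 0.09 and 0.21 without the 2 arrays. With the mean of the tag digit removed too, a setting chosen after seeing the data, its r was -0.48 in brain and 0.75 in liver. In that setting 5 of the 11 members passed in brain and all 11, Hspd1 among them, in liver. Whether these correlations differ between the tissues was not tested. How often genes outside the list correlate with Dnajb1 as strongly was not tested either.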

How the data were processed

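Per the submitters' processing notes the authors made the deposited log2 values with RMA in Affymetrix Expression Console. RMA scales arrays toward a common distribution, so a change in total RNA cannot be seen. The deposited arrays still differed in distribution. With values sorted, an array lay up to 0.21 in brain and up to 0.23 in liver from the mean of its tissue. Brain and liver appear to have been normalized apart, and no level was compared between tissues. Levels of probes were compared only to choose the brightest probe of a gene, by its mean over all arrays, and to leave out dim genes. The sources used here do not name the array model. The number of arrays limits the precision.

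Probes were named from GEO's annotation of the platform, some of it old, and 21218 of 35556 had 1 gene symbol. All 85 members matched RefSeq by Entrez ID. The brightest probe of a gene was used (115 probes for the members, 11 of which have several). The dimmest 33.3% of genes were left out in each tissue (below 5.52 in brain, 3.92 in liver), which left 12547, and 10869 in both. Groups were compared with limma 3.58.1 in R 4.3.3 (lmFit, eBayes), two-sided, with Benjamini-Hochberg adjustment over all genes tested. The fits were tested on simulated data.

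The members and lists were chosen with earlier results of these data known. Genes named were members that passed, the 5 largest rises and falls per tissue, the heat-inducible members and companions that passed; further members are given where a family or place is described and were chosen after their values were seen. Correlations used deviations from group means and 100000 permutations within groups. Alternatives covered the filter, scaling, covariates, blocks, variance model, probes, test and arrays. The tags were not taken to pair the tissues, because the labels do not say what a tag marks. The main test of the difference therefore treated the 38 arrays as independent. Over 18 tags, the correlation of the deviations of all genes had a median of 0.001 and ranged from -0.318 to 0.249. These values cannot decide whether a tag marks 1 mouse, because differences between whole arrays enter the deviations. Arrays of a group were not identical (correlations in brain of 0.979 to 0.997).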

Additional observations from a re-analysis of the deposited data

Results flagged for a closer look

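In 16 of 164 pairs of a named member and a group, 1 array lay far from the rest of its group, with 7 high and 9 low values, where chance alone gives about 5%. On liver haloperidol 2T, 6 members were far below the other 8 haloperidol livers: Cct4 at 8.41 (others 8.75 to 9.01), Dnaja1 at 9.54 (10.14 to 10.45), Hsf2 at 7.48 (8.21 to 8.78), Hspa8 at 11.69 (12.02 to 12.33), Hspb11 at 5.54 (6.00 to 6.19) and Tcp1 at 8.60 (8.92 to 9.26). On haloperidol 4N, 3 members were far above: Dnajb1 in liver at 8.02 (6.23 to 6.97), Bag3 in liver at 9.49 (7.97 to 8.53) and Ahsa1 in brain at 10.73 (10.13 to 10.42). In placebo liver, Hspb1 was low on 3L at 7.57 (8.58 to 9.57). In brain, Dnajc11 and Dnajc16 were low on placebo 4R, at 8.25 (8.41 to 8.56) and 9.41 (9.56 to 9.71). High values in placebo brains were those of Dnajc24 on 1T at 8.72 (8.29 to 8.51), Dnajc7 on 1N at 9.94 (9.67 to 9.80) and Dnajc9 on 4B at 8.06 (7.66 to 7.82). Hsp90b1 was high on haloperidol 1R at 11.00 in brain (10.51 to 10.75).

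For 18 members the change in liver differed from that in brain in limma's test of the difference itself. The liver change minus the brain change was -0.97 for Hspe1, -0.90 for Dnajb9, -0.89 for Dnajc15, -0.83 for Dnajc12, -0.68 for Hspa13, -0.64 for Hspb8, -0.54 for Dnajc19, -0.54 for Stip1, -0.46 for Dnajc9, -0.45 for Dnaja4 and -0.29 for Ahsa1. In TRiC it was -0.59 for Cct3, -0.58 for Cct6a, -0.57 for Cct5, -0.47 for Cct4, -0.40 for Tcp1, -0.40 for Cct7 and -0.31 for Cct2.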

How the results depend on the processing

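The count of 23 members that passed in brain became 0 with the array median as a covariate and 0 with the first principal component as a covariate, which was chosen after seeing the data. It was 11 in a Wilcoxon rank sum test and 10 with haloperidol 4N, haloperidol 4T and placebo 1L left out. It lay between 16 and 30 in all other settings, and between 16 and 29 when 1 array was left out. In liver 0 members passed in each setting tried. The count of 18 in the difference between tissues became 47 with array medians subtracted, where 4345 of all 10869 genes passed. It became 0 with the array median as a covariate, where 0 of all genes passed, and lay between 16 and 23 in the others. With the tag as a replicate block over both tissues 20 passed, of which 18 were among the 18; of 18 tags, 3 brain arrays correlated best with the liver array of their own tag. The 7 correlations with Dnajb1 became 12 with array medians subtracted and 16 with the mean of the tag digit removed, a setting chosen after seeing the data. The 1 correlation between tissues became 3 with array medians subtracted and 0 with the tag digit removed.

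With the array median as a covariate the brain change turned to -0.0045 for Cct2, -0.081 for Hspa13, -0.101 for Hspb8 and -0.014 for Stip1. With the first principal component as a covariate it turned to -0.024 for Bag2, -0.016 for Cct3, -0.065 for Cct4, -0.028 for Cct6a, -0.050 for Dnajc12, -0.032 for Dnajc8, -0.163 for Hspa13, -0.013 for Hspb11, -0.157 for Hspb8, -0.021 for Stip1 and -0.039 for Tcp1, and to 0.066 for Dnajc11, 0.058 for Dnajc16 and 0.021 for Dnajc21. Both covariates differ between the groups, and the cause was not tested.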
